A study of Mus musculus with 58 samples.

Results

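The protein disulfide isomerases described here are 8 genes, P4hb, Pdia3, Pdia4, Pdia5, Pdia6, Txndc5, Txndc11 and Tmx1, chosen by their symbols from the 52459 gene rows of a count table of the mouse retina. All 8 were expressed above a median of 4 normalized counts over the libraries and were tested together with the other genes that passed this filter, 19120 in all. The study asked how the daily rhythm of the retinal transcriptome differed in diabetes, and sequenced total RNA depleted of ribosomal RNA from 58 individual retinal samples. The diabetic mice (28 libraries) were males heterozygous for Ins2Akita, a missense mutation of the insulin gene Ins2 that makes proinsulin misfold in pancreatic beta cells, and the control mice (30 libraries) were littermate males without it, both of C57BL/6 background. All mice were 4 months old, had been kept under 12 h of light and 12 h of dark from birth, were perfused with saline, and were collected at 1 of 6 zeitgeber times (ZT, hours after lights on), with the night points handled under dim red light. Control groups held 5, 6, 5, 5, 5 and 4 libraries at ZT1, ZT5, ZT9, ZT13, ZT17 and ZT21, and diabetic groups 5, 5, 5, 4, 4 and 5. Because the mutation acts in beta cells, the retinas were exposed to high blood glucose through the whole animal. Ins2 itself was nearly silent in the retina (0.70 ± 1.28 normalized counts in control and 1.66 ± 1.73 in diabetic libraries, SD), and a missense change is not visible in gene counts, so the genotype labels could not be checked here.

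Protein disulfide isomerases are thioredoxin-like enzymes of the endoplasmic reticulum (ER) that form, break and rearrange the disulfide bonds of newly made membrane and secreted proteins. Several of them are induced, with the ER chaperones, by the unfolded protein response, in which the factors ATF6 and XBP1 bind ER stress response elements in promoters. Photoreceptors make large amounts of rhodopsin, a membrane protein that needs a disulfide bond to fold.

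Libraries held 7773117 to 22147398 counts, and raw counts of the 8 genes ran from 255 for Pdia5 to 3469 for P4hb. Values below are counts divided by DESeq2 size factors (normalized counts), given with the SD between libraries. Rod markers dominated every library, with a summed level of 491673 to 757317 normalized counts. Summed lens markers were above 10000 in 3 libraries, all control (ZT1 replicate 6, ZT17 replicate 5 and ZT21 replicate 2), against at most 896 in any diabetic library. The study calls the libraries of a group biological replicates and the labels tie none to a mouse, so p-values measure the spread between these libraries. In whole retina, fewer cells of a type and less RNA per cell cannot be told apart.

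Of the 8 genes, Pdia6 was the only member whose promoter window held an exact ER stress response element, so its sequence is shown beside that of Pdia5, the other member that differed between the genotypes. Promoter windows of 300 bases (250 before and 50 after the start) were found for all 8 genes in RefSeq (GRCm38.p6), with the window's end found in the gene's own Gencode transcripts for 7 of the 8. For Pdia4 it was not found, so its window was not checked in this way. In these windows the letters CCAAT and CCACG with any 9 bases between them, searched on both strands, stood in 39 of 32851 windows, or 0.119%. The stretches below run from position -250 to -51 from the transcription start, at chr12:17266339-17266538 (plus strand) for Pdia6 and chr16:35490924-35491123 (minus strand) for Pdia5, and capitals mark the fixed letters of the element.
Pdia6: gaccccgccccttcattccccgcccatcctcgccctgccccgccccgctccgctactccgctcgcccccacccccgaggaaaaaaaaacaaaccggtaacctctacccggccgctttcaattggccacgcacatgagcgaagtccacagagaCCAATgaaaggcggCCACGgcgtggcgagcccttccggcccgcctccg
Pdia5: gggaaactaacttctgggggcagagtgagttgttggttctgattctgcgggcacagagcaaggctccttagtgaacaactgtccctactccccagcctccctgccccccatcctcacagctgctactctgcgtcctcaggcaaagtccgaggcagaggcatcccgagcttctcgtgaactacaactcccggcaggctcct
In the Gencode annotation of GRCm38 the genes span chr12:17266545-17284770 (Pdia6) and chr16:35397312-35490873 (Pdia5). The element of Pdia6 lay at position -98 to -80 (chr12:17266491-17266509). Of 19 listed ER chaperone genes, 16 were in the table and 6 of them held the element (Calr, Canx, Creld2, Dnajc3, Hsp90b1 and Hspa5). The element is shown next for the 4 of them described further below, read 5′ to 3′ on its own strand, at chr2:34772025-34772043 for Hspa5, chr10:86705638-86705656 for Hsp90b1 (the first of its 2 matches), chr8:84847075-84847093 for Calr and chr15:88819520-88819538 for Creld2.
Hspa5: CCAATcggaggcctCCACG
Hsp90b1: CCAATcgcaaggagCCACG
Calr: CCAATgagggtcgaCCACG
Creld2: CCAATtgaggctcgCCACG
A second pattern, the UPR element TGACGTGG, stood in 0.676% of windows and in those of Txndc11 (position -102 to -95) and Txndc5 (position -138 to -131). Another, ATTGG and CCACG with 1 base between them, stood in 0.0365% of windows and in none of the 8 genes, and the matches of the members did not overlap one another. Of the 6 chaperone genes with the first element, only Calr and Creld2 passed edgeR's test between genotypes at ZT17. Sdf2l1, which also passed there, held no match. A match describes letters only, and binding was not measured here.

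Members differed widely in level. Per kilobase of merged exons, control libraries held 752 ± 79.7 normalized counts of P4hb, the founding isomerase and a subunit of prolyl 4-hydroxylase, and 527 ± 85.7 of Pdia3, which folds glycoproteins together with calnexin and calreticulin. Next came Tmx1, a membrane-bound isomerase, at 435 ± 63.0, and Pdia4, a soluble isomerase found in chaperone complexes of the ER, at 393 ± 48.2. Pdia6, a partner of the chaperone Hspa5, stood at 227 ± 35.6 and Pdia5, described to act on disulfide bonds of ATF6, at 201 ± 16.6. Txndc5, which introduces disulfide bonds into nascent chains, stood at 156 ± 17.6 and Txndc11, a membrane-anchored member, at 107 ± 7.43 (n = 30 for each). Neighbours in this order overlapped in their library ranges except Pdia4 and Pdia6 and, barely, Txndc5 and Txndc11, whose ranges of 127 to 204 and 92.6 to 125 lay apart.

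Over all time points, Pdia6 and Pdia5 were lower in the diabetic retina, and 7 of the 8 members had a negative fold change, as had 49.4% of all genes. Pdia6 had a lowest, median and highest level of 655, 842 and 1138 normalized counts in control libraries and of 532, 732 and 891 in diabetic libraries. Pdia5 had 473, 546 and 654 in control and 403, 488 and 624 in diabetic libraries. For both genes the diabetic libraries sat lower as a group while the ranges overlapped. In edgeR's quasi-likelihood test with Benjamini-Hochberg adjustment over all 19120 genes, the log2 fold change was -0.21 ± 0.048 (SE) for Pdia6 (adjusted p = 0.00533) and -0.19 ± 0.034 for Pdia5 (adjusted p = 0.000213). These 2 of 8 members compare with 2.99% of all genes called in either direction and 1.41% called lower. An unadjusted p under 0.05 was found for 6 of 8 members and 15.5% of all genes.

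The other 6 members did not pass this test. Pdia3 had a log2 fold change of -0.17 ± 0.052 (adjusted p = 0.0600) and Txndc5 of -0.11 ± 0.036 (adjusted p = 0.0711). Pdia4 (-0.10), P4hb (-0.076), Tmx1 (-0.012) and Txndc11 (0.028) were closer to 0. The median of the 8 log2 fold changes was -0.11, against 0.0012 over all genes. DESeq2's test also called Pdia3 (adjusted p = 0.0485). With time point as a covariate in the edgeR fit, Pdia3 (adjusted p = 0.00724) and Txndc5 (adjusted p = 0.0464) also passed.

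**Figure D1:**
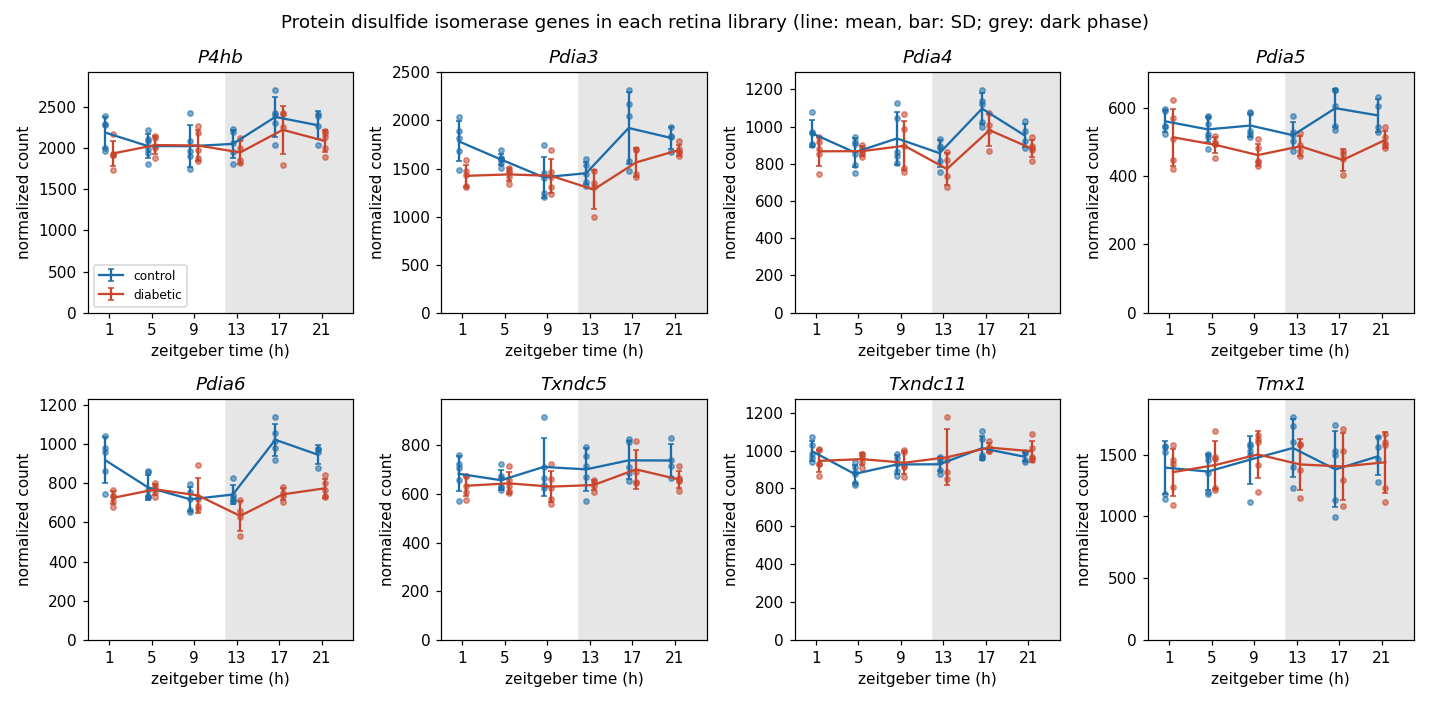
Normalized counts of the 8 genes against zeitgeber time in hours, with 1 point per library, lines through the group means and bars for the SD, in control (blue) and diabetic (red) retinas; grey marks the dark phase. The mean of Pdia6 at ZT17 is 1022 in control, and its diabetic means lie between 633 and 774 at all 6 time points.

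At single time points the differences passed the test at ZT17, the middle of the night, again for Pdia6 and Pdia5. At ZT17 the 5 control libraries held 917, 1138, 1018, 1054 and 982 normalized counts of Pdia6, and the 4 diabetic libraries 751, 779, 737 and 706. Every diabetic library lay below every control library. The means were 1022 ± 82.5 and 743 ± 30.5, and the log2 fold change was -0.46 ± 0.079 (edgeR adjusted p = 0.00254). Pdia5 held 654, 548, 607, 652 and 537 normalized counts in the control libraries at ZT17, and 449, 473, 466 and 403 in the diabetic ones. Again the groups did not overlap, as was so for 1.05% of all genes at ZT17 in this direction. The log2 fold change of Pdia5 was -0.42 ± 0.079 (edgeR adjusted p = 0.00600), and it no longer passed without diabetic ZT17 replicate 5, the lowest library (adjusted p = 0.101). At this time point 0.167% of all genes were called, 0.105% lower, and 3 members (Pdia6, Pdia5 and Pdia3) against 8.82% of all genes had an unadjusted p under 0.05.

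None of the 8 genes passed at the other 5 time points in the edgeR test, where the shares of all genes called were 0.0105% (ZT1), 0.0209% (ZT5), 0.00523% (ZT9) and 0% (ZT13 and ZT21). Members with an unadjusted p under 0.05 numbered 3 for ZT1 (Pdia6, Pdia3 and P4hb) against 5.5% of all genes, 1 for ZT5 (Txndc11) against 6.15%, 2 for ZT9 (Pdia5 and Txndc5) against 4.49%, 1 for ZT13 (Pdia6) against 4.46% and 2 for ZT21 (Pdia6 and Pdia5) against 4.67%. Pdia6 also did not overlap at ZT21, where control libraries held 976.6, 875.8, 957.6 and 972.3 normalized counts and diabetic libraries 800.6, 765.5, 843.5, 729.0 and 732.3 (log2 fold change -0.29 ± 0.079, edgeR adjusted p = 0.282). Groups that did not overlap in this direction made up 1.06% of all genes at ZT21. At ZT1 Pdia6 had a log2 fold change of -0.33 ± 0.075 (edgeR adjusted p = 0.168), which DESeq2's test called (adjusted p = 0.0297), while at ZT5 and ZT9 its fold changes were -0.024 and 0.035. Pdia5 at ZT9 held 515.2 to 588.4 normalized counts in control and 431.5 to 509.7 in diabetic libraries, without overlap, as for 0.434% of all genes (edgeR adjusted p = 0.552).

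**Figure D2:**
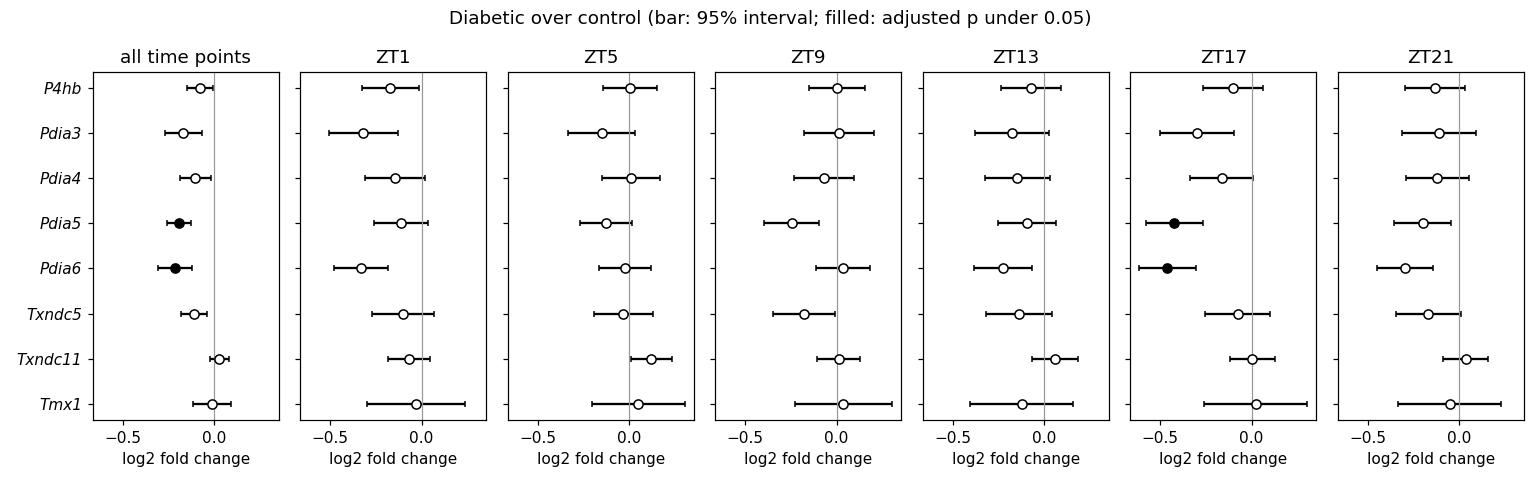
Log2 fold change of diabetic over control for each gene over all time points and at each zeitgeber time, with 95% confidence intervals; filled points have an adjusted p under 0.05 in edgeR's test. Pdia5 and Pdia6 are filled over all time points and at ZT17, at -0.42 and -0.46 for ZT17.

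In control retinas 5 members, Pdia6, Pdia4, Pdia3, P4hb and Txndc11, were higher in the middle of the night than in the middle of the day, and in diabetic retinas no member passed that test. Pdia6 in the 6 control libraries at ZT5 had a lowest, median and highest level of 728, 751 and 862 normalized counts, all below the 5 control libraries at ZT17 listed above. Its log2 fold change of ZT17 over ZT5 was 0.38 ± 0.071 (edgeR adjusted p = 0.00017). Pdia4 held 751.9 to 946.5 normalized counts at ZT5 and 997.8 to 1198 at ZT17, again without overlap, with a log2 fold change of 0.34 ± 0.080 (edgeR adjusted p = 0.00267). Txndc11 held 817.8 to 938.6 normalized counts at ZT5 and 960.0 to 1100 at ZT17. These 3 members did not overlap between the time points, as was so for 4.28% of all genes in this direction. Also called were Txndc11 (0.20 ± 0.057, edgeR adjusted p = 0.0135), P4hb (0.22 ± 0.075, adjusted p = 0.0362) and Pdia3 (0.26 ± 0.093, adjusted p = 0.0452). Thus 5 of the 8 members were called, all higher, where 15.1% of all genes were called and 7.42% were higher. An unadjusted p under 0.05 was found for 6 of 8, against 30.9% of all genes. The calls were lost for P4hb when any of 6 single libraries was left out (adjusted p up to 0.179), for Pdia3 with any of 9 (up to 0.156) and for Txndc11 without control ZT17 replicate 3 (0.051). Txndc5 (0.16), Pdia5 (0.15) and Tmx1 (0.011, 95% interval -0.24 to 0.27) had log2 fold changes that did not pass.

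In the diabetic retina 0 of 8 members were called by edgeR between ZT17 and ZT5, and 0 had an unadjusted p under 0.05, against 7.36% of all genes called and 21.3% with such a p. DESeq2's test also called 0. Txndc11 held 907.0 to 981.5 normalized counts at ZT5 and 996.6 to 1048 at ZT17 in diabetic libraries, with a log2 fold change of 0.082 ± 0.063. It was the 1 member without overlap in the diabetic retina, as was so for 3.4% of all genes. Pdia6 held 729 to 801 normalized counts at ZT5 and 706 to 779 at ZT17 in diabetic libraries, with a log2 fold change of -0.056 ± 0.079. The difference between the genotypes in the ZT17 over ZT5 change was -0.44 ± 0.11 for Pdia6 (95% interval -0.65 to -0.23, edgeR adjusted p = 0.426). It did not pass over all genes, and 0 of 19120 genes did in edgeR's test, while 3.83% of them and 2 members had an unadjusted p under 0.05. Pdia5 followed with -0.29 ± 0.11 (95% interval -0.50 to -0.084), and the other 6 members had intervals that held 0.

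Markers of other cells moved with the time of day. In the control retina 5 of 6 pigment epithelium markers (Rpe65, Ttr, Rgr, Lrat and Rdh5) were higher at ZT17 than at ZT5, with a summed level of 537 to 2244 normalized counts at ZT5 and 1779 to 3131 at ZT17, and in the diabetic retina the same 5 were also higher. Also higher in control were the bipolar markers Grm6 (log2 fold change 0.41), Cabp5 (0.27) and Trpm1 (0.20), 1 of 3 amacrine (Slc6a9), 1 of 4 Muller glia (Glul) and 2 of 2 tested lens markers (Cryaa and Crybb1), and 2 of 5 cone (Arr3 and Pde6h) and 1 of 5 rod markers (Sag) were lower. Summed lens markers in control ran from 7.20 to 26750 normalized counts at ZT17 (median 24.0), the highest in lens-rich replicate 5. At ZT5 they ran from 4.51 to 118 (median 14.9), so the lens difference rested largely on that library. In diabetic retinas Cabp5 was higher, and Arr3 and Sag lower. With the summed pigment epithelium level as a covariate, Pdia6, Pdia4 and Txndc11 stayed called, Pdia5 was added (adjusted p = 0.0415), and P4hb (log2 fold change 0.16, adjusted p = 0.228) and Pdia3 (0.23, adjusted p = 0.168) no longer passed. In the same fit the difference between genotypes at ZT17 was -0.46 for Pdia6 (adjusted p = 0.00273) and -0.46 for Pdia5 (adjusted p = 0.00168). Without the 3 lens-rich libraries it was -0.47 for Pdia6 (adjusted p = 0.00271) and -0.46 for Pdia5 (adjusted p = 0.00480), and Pdia3 no longer passed between ZT17 and ZT5 in control (log2 fold change 0.22, adjusted p = 0.111). The part of the bipolar, amacrine, Muller glia, cone and rod markers in these results was not tested.

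Across all 6 time points, edgeR's test for any change with time of day called Pdia6 (adjusted p = 7.55e-07), Pdia3 (adjusted p = 0.00202) and Pdia4 (adjusted p = 0.0157) in control retinas, 3 of 8 members against 9.06% of all genes, and 5 against 21.8% had an unadjusted p under 0.05. Pdia4 was no longer called without control ZT17 replicate 1 or 3 (adjusted p up to 0.0752). P4hb was called without control ZT9 replicate 4 (adjusted p = 0.0334), and Txndc11 without diabetic ZT13 replicate 5 (adjusted p = 0.0278) and by DESeq2's test (adjusted p = 0.0322). In diabetic retinas it called 0 of 8 members, where 3 (Pdia3, Pdia6 and Pdia4) had an unadjusted p under 0.05, against 10.2% of all genes called and 22.3% with such a p. DESeq2's test called Pdia3 there (adjusted p = 0.0376). With edgeR Pdia3 was also called without control ZT17 replicate 1, diabetic ZT13 replicate 1 or diabetic ZT9 replicate 3 (adjusted p down to 0.0382), and Pdia6 without diabetic ZT13 replicate 1 (adjusted p = 0.0484). A rank test for a 24 h rhythm with asymmetric waveforms, called at an unadjusted p under 0.05 with the highest library over 25% above the lowest, found 5 rhythmic members in control (P4hb, Pdia3, Pdia4, Pdia6 and Txndc11) against 21.8% of all genes. In diabetic retinas it found 1, Pdia3 (permutation p = 0.0240), against 23.9% of all genes. After adjustment over all genes 3 were called in control (Pdia3, Pdia6 and Txndc11) against 8.23% of all genes, and 0 in diabetic retinas against 10.3%. With the fold taken between time point means, P4hb and Txndc11 were no longer called in control, and the genes called numbered 2532 in place of 4172. Rhythmic in control and not in diabetic retinas were 4 members and 9.96% of all genes. In diabetic retinas Pdia6 was called when any of 8 single libraries was left out (permutation p down to 0.0265), and Txndc11 with any of 3 (down to 0.0249), so that leaving out any one of 11 of the 28 libraries gave 2 rhythmic members.

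Pdia6 had the strongest rhythm of the 8 genes in control. Its permutation p of 1e-06 was the smallest that the permutations could give. A cosine fitted to its normalized counts had an amplitude of 17.6% ± 2.60 (SE) of the mean level with a peak at ZT20.5 ± 0.54 h in control, and of 5.19% ± 2.40 with a peak at ZT0.86 ± 1.73 h in diabetic retinas (permutation p = 0.0606). Pdia3 had 15.1% ± 3.35 in control against 8.73% ± 2.79 in diabetic retinas and peaked at ZT21.1 and ZT21.0. P4hb went from 8.39% ± 2.36 in control to 3.42% ± 2.42, and Pdia4 from 8.15% ± 2.88 to 2.73% ± 2.87. Pdia5 had about the same amplitude in both, 5.06% ± 2.03 in control and 5.09% ± 2.48 in diabetic retinas, and passed in neither with all libraries. It was called in control without ZT9, and when any of 4 single libraries was left out (permutation p down to 0.0239). Txndc11 had 5.82% ± 1.49 and 3.60% ± 1.89, Txndc5 4.97% ± 2.79 and 3.74% ± 2.10, and Tmx1 3.91% ± 3.76 and 2.69% ± 3.86. The 5 members rhythmic in control peaked between ZT19.0 and ZT21.1, late in the night. Calls changed with single time points left out. In diabetic retinas Pdia6 passed without ZT1 (permutation p = 0.00514), ZT5, ZT17 or ZT21, Pdia4 passed without ZT9 (permutation p = 0.0170), and Pdia3 did not pass without ZT21 (permutation p = 0.412). In control P4hb (permutation p = 0.0928) and Pdia4 (permutation p = 0.277) did not pass without ZT17, so that 3 members in control and 2 in diabetic retinas were then rhythmic.

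**Figure D3:**
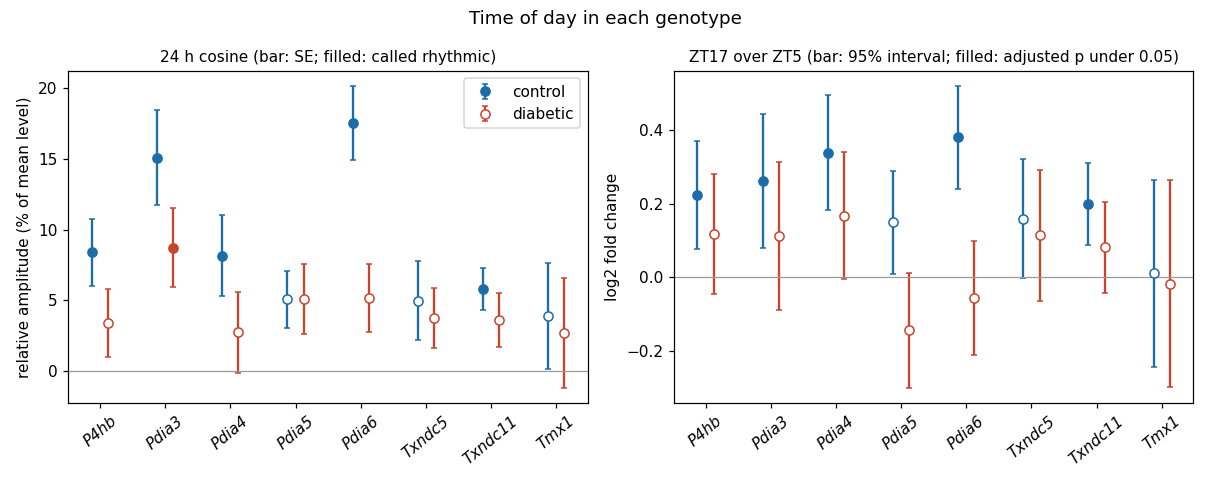
Left, amplitude of the fitted 24 h cosine as a percent of the mean level with its SE, filled where a rhythm was called; right, log2 fold change of ZT17 over ZT5 with its 95% confidence interval, filled where the adjusted p was under 0.05, for each gene in control (blue) and diabetic (red) retinas. Pdia6 shows 17.6% in control against 5.19% in diabetic retinas.

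The difference in rhythm itself was tested by the interaction of genotype with the cosine, over all genes tested. The study used another method, DODR, on genes rhythmic in either genotype, and that method was not run here. With it the study reported differentially rhythmic genes, and enrichment of ER stress and the unfolded protein response among those with reduced amplitude. For Pdia6 the unadjusted edgeR p was 7.21e-05 and the adjusted p was 0.460. The other 7 members had unadjusted p values from 0.165 to 0.891. In edgeR's and DESeq2's test 0 of 19120 genes passed after adjustment, while 3.44% in edgeR's had an unadjusted p under 0.05. In a test of whether the genotype difference varied over the 6 time points (genotype by time interaction), Pdia6 had an adjusted p of 0.570 in edgeR's fit, and 0 of 19120 genes passed, while 2.69% and 2 members (Pdia6 and Pdia5) had an unadjusted p under 0.05. A lower amplitude in diabetic retinas was also common among all genes rhythmic in control, of which 64.5% had one.

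Members fell into patterns over the 58 libraries, which share genotype and time of day. Pearson's r of log2 levels was 0.83 for Pdia3 and Pdia6, 0.71 for P4hb and Pdia4, and 0.71 for P4hb and Txndc5. The r of Tmx1 to the other members ran from -0.42 to 0.31, and that of Txndc11 from -0.28 to 0.27. The genes most like Pdia3 were the ER chaperones Hsp90b1 (r = 0.90) and Hspa5 (r = 0.87), and those most like Pdia6 were Hspa5 (r = 0.86), Pdia3 and the Hspa5 cofactor Dnajb11 (r = 0.80). After subtraction of the group means, r was 0.67 for Pdia3 with Pdia6, 0.60 for P4hb with Pdia4 and 0.69 for P4hb with Txndc5. Pdia6 then had 0.72 with Hspa5 and 0.57 with Dnajb11, and Pdia3 0.89 with Hsp90b1 and, up from 0.31, 0.60 with Tmx1. The 4 pairs of members that dropped most were Pdia5 with Pdia6 (0.42 to -0.16), Pdia3 with Pdia5 (0.24 to -0.29), Pdia6 with Txndc11 (0.047 to -0.43) and Pdia3 with Txndc11 (0.00067 to -0.40). Hspa4 followed for Pdia3 (r = 0.84). P4hb was most like Atp5b, Atp6v0d1 and Psmc3 (r = 0.88 for each), and Pdia4 like Ubtf (0.85), Ckmt1 (0.84) and Manf (0.84). Txndc5 was most like Mea1 (0.85), Slc17a7 (0.84) and Faim2 (0.84), and Txndc11 like Plcd3 (0.72), Gpsm1 (0.68) and 6530402F18Rik (0.68). Pdia5 was most like Pitpnm2os2 (0.72), Ube4bos1 (0.71) and Ttc25 (0.69), which had 0.54, 0.43 and 0.69 after subtraction of the group means, and Tmx1 like Ppp1cb (0.94), Trove2 (0.93) and Gpbp1 (0.92). Tmx1 ranged from 999 to 1806 normalized counts in control and from 1084 to 1707 in diabetic libraries, a spread within groups with no difference between genotypes that passed a test.

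**Figure D4:**
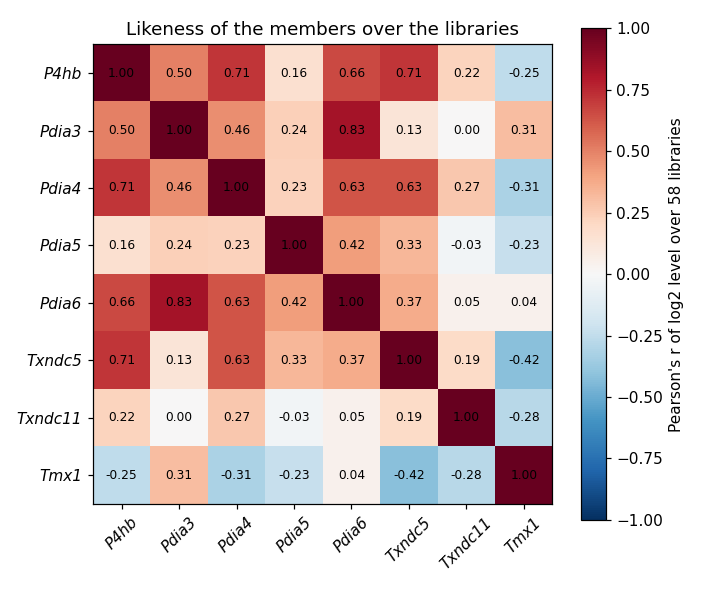
Pearson's r of the log2 levels of each pair of the 8 genes over 58 libraries, as numbers and colour. Pdia3 and Pdia6 pair at 0.83, and Tmx1 and Txndc11 are at or below 0.31 with every other gene.

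Other genes of the same pathway were read from lists, chosen with earlier results of these data known. Of the 19 ER chaperones and glycoprotein folding genes, 3 were lower in diabetic retinas over all time points, against 1.41% of all genes: the lectin chaperone Calr (log2 fold change -0.27 ± 0.071, edgeR adjusted p = 0.0200), Creld2 (-0.20 ± 0.055, adjusted p = 0.0283) and Dnajb11 (-0.14 ± 0.034, adjusted p = 0.0145). At ZT17 Sdf2l1 (-0.89 ± 0.20, edgeR adjusted p = 0.0299), Calr (-0.63 ± 0.12, adjusted p = 0.00820) and Creld2 (-0.56 ± 0.098, adjusted p = 0.00254) were lower, against 0.105% of all genes, and 17 of the 19 had a negative fold change, as had 48.0% of all genes. Between ZT17 and ZT5, 7 of the 19 were higher and 1, Uggt2 (-0.50, edgeR adjusted p = 0.0186), lower in control, where 7.42% of all genes were higher and 15.1% called. The 3 with the smallest p were Manf (0.77 ± 0.096, edgeR adjusted p = 6.87e-08), Creld2 (0.60 ± 0.089, adjusted p = 3.70e-06) and Hspa5 (0.67 ± 0.10, adjusted p = 8.70e-06). In diabetic retinas 0 of the 19 were called by edgeR, against 7.36% of all genes, and 3 (Manf, Hyou1 and Uggt2) had an unadjusted p under 0.05, against 21.3%. Rhythms were called for 12 of the 19 in control, against 21.8% of all genes, and for 4 (Hspa5, Hsp90b1, Hyou1 and Manf) in diabetic retinas, a share near the 23.9% of all genes. Of the 18 unfolded protein response and degradation genes 5 were rhythmic in control (Xbp1, Derl3, Ddit3, Atf6b and Ppp1r15a). In diabetic retinas 5 were (Xbp1, Ppp1r15a, Trib3, Derl2 and Ddit3). Atf6 (permutation p = 0.000272) and Ern1 (permutation p = 0.000383) in control missed the call by the fold alone, 1.24 for each. So did Atf6 in diabetic retinas (permutation p = 0.0124, fold 1.23). Of the 10 tested other isomerase family genes 1 was rhythmic in control (Txndc12) and 3 in diabetic retinas (Txndc16, Txndc12 and Agr2). Of the 12 tested redox partners 2 were in control (Vkorc1 and Sumf2) and 3 in diabetic retinas (Qsox2, Prdx4 and Ero1l). Of the 4 enzyme partners of P4hb 2 were in control (P4ha1 and Mttp) and 1 in diabetic retinas (P4ha1). All these counts stand against the same 21.8% of all genes in control and 23.9% in diabetic retinas. Derl3 and Vkorc1 had low fitted mean levels in control, of 8.97 and 7.61 normalized counts.

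Of 18 genes of the unfolded protein response and ER-associated degradation, none passed the edgeR test between genotypes, over all time points or at ZT17. An unadjusted p under 0.05 was found over all time points for 5, against 15.5% of all genes: Sel1l (log2 fold change -0.058), Derl3 (-0.58), Atf4 (0.17), Chac1 (-0.20) and Atf6 (-0.051). At ZT17 it was found for 3, against 8.82%: Sel1l (-0.16), Xbp1 (-0.36) and Derl3 (-1.13). Derl3 was near the filter of 4 normalized counts, with a fitted mean level of 8.97 in control and 5.87 in diabetic retinas. Between ZT17 and ZT5, 6 were higher in control, against 7.42% of all genes, and 2, Xbp1 and Ppp1r15a, in diabetic retinas, where 7.36% of all genes were called in either direction. Xbp1, the transcription factor of that response, rose by 0.93 ± 0.088 on the log2 scale in control (edgeR adjusted p = 3.85e-11) and by 0.40 ± 0.097 in diabetic retinas (adjusted p = 0.00510). Ddit3 (0.36, edgeR adjusted p = 0.00581) and Ppp1r15a (0.49, adjusted p = 0.00706) were next in control, and Ppp1r15a had 0.47 in diabetic retinas (adjusted p = 0.0279). Of 14 other isomerase family genes, 10 were tested and none passed between genotypes over all time points or at ZT17 (0 with an unadjusted p under 0.05 in either, against those same shares), and Txndc12 (0.33 ± 0.076, edgeR adjusted p = 0.00354) and Txndc16 (0.29 ± 0.083, adjusted p = 0.0210) were higher at ZT17 than ZT5 in diabetic retinas. Of 12 tested oxidation and redox partners, none passed between genotypes (1, Gpx7, with an unadjusted p under 0.05 in each comparison, at -0.27 and -0.69). Gpx7 had a low fitted mean level, of 14.6 normalized counts in control and 12.2 in diabetic retinas. Sumf1 was lower at ZT17 than ZT5 in control (-0.30 ± 0.10, edgeR adjusted p = 0.0334). P4ha1, the catalytic partner of P4hb in prolyl 4-hydroxylase, was higher at ZT17 than ZT5 in control (0.63 ± 0.083, edgeR adjusted p = 2.77e-07) and in diabetic retinas (0.51 ± 0.091, adjusted p = 0.000143), beside Mttp, which was lower in control (-0.22 ± 0.079, adjusted p = 0.0477).

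**Figure D5:**
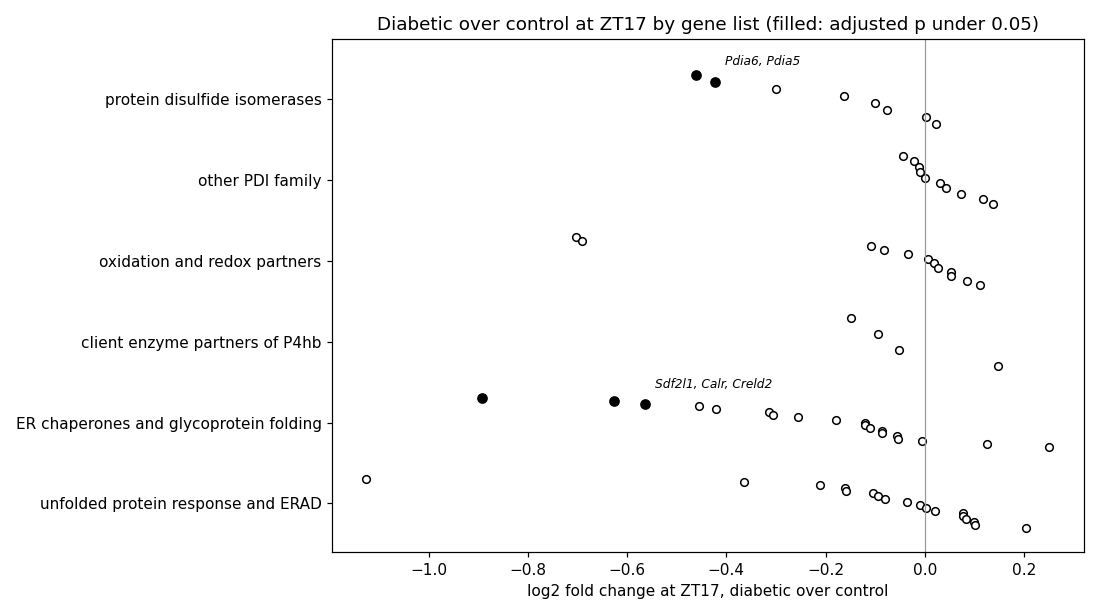
Log2 fold change of diabetic over control at ZT17 for each tested gene of the 8 isomerases and of 5 lists, with 1 point per gene, filled where edgeR's adjusted p was under 0.05. Filled points are Pdia6 and Pdia5 and, among chaperones, Sdf2l1, Calr and Creld2, all to the left of 0.

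Markers that differed between genotypes over all time points, where 2.99% of all genes did, were 1 of 5 rod (Pde6a), 2 of 5 cone (Pde6h and Gnat2), 1 of 3 microglial (Cx3cr1) and 2 of 2 tested lens markers (Cryaa and Crybb1), lower in diabetic retinas, and 1 of 4 tested fibroblast markers (Col1a1), higher. The log2 fold changes were negative for 5 of 5 rod markers (median -0.094, 4 with an unadjusted p under 0.05), beside the members' median of -0.11, and for the bipolar markers Grm6 (-0.14) and Trpm1 (-0.097), both with such a p, and Cabp5 (-0.024). They were also negative for 5 of 5 cone markers (median -0.12, 3 with such a p). The ganglion cell markers went the other way: Nefl (0.089) and Rbpms (0.12), both with such a p, Pou4f1 (0.058) and Sncg (0.011). At ZT17 the medians were -0.13 for rod markers, -0.027 for cone markers and -0.13 for the members. The bipolar markers had -0.27 (Grm6), -0.13 (Trpm1) and 0.091 (Cabp5), the ganglion cell markers ran from -0.055 (Sncg) to 0.15 (Nefl), and none of these markers passed. Summed levels of control and diabetic libraries ran from 500331 to 757317 and from 491673 to 689983 for rods, from 10526 to 12779 and from 9981 to 12407 for cones, from 99.8 to 157 and from 82.1 to 151 for microglia, and from 50.8 to 165 and from 73.8 to 494 for fibroblasts. Without the 3 lens-rich libraries the difference over all time points was -0.19 for Pdia6 (edgeR adjusted p = 0.0186) and -0.20 for Pdia5 (adjusted p = 0.000534). Blood and cornea markers were below the filter. The part of rod, cone, bipolar, ganglion cell, microglial and fibroblast markers in the members' differences was not tested.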

How the data were processed

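Retinal RNA of 58 libraries was sequenced. The deposited table holds raw counts per gene: the authors mapped paired-end reads with STAR 2.7.4a to GRCm38.p5, counted them with HTSeq 0.11.1 over a Gencode annotation and normalized with DESeq2 1.26.0. The strand setting of the counting is not given in the sources used here, and Pdia3, Pdia6, Txndc5 and Txndc11 overlap genes on the opposite strand, most of all Txndc5.

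The deposited counts were tested with edgeR 4.0.16 (quasi-likelihood, TMM, Benjamini-Hochberg) in R 4.3.3, over all libraries and in a fit of 12 groups. Rhythm was tested by a re-implemented empirical JTK_CYCLE with 1000000 shuffles on counts divided by size factors, and amplitudes came from a least-squares cosine of 24 h. Alternatives were DESeq2 1.42.0, other scalings, filters and covariates, a block for replicate number, leaving out each library or time point and, chosen after seeing the data, leaving out lens-rich libraries and a pigment epithelium covariate. Tests were checked on simulated data. All members, the 3 genes most like each, and the 3 smallest p-values of each pathway list among genes that passed were named, as was each gene in a list's count of 5 or fewer. The members and lists were chosen with earlier results of these data known. Among 113 replicate pairs the lowest chi-square per degree of freedom was 1.94, so no pair was merged. Of the markers of retinal cells, 1 is not reported here.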

Additional observations from a re-analysis of the deposited data

Results flagged for a closer look

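Of 96 groups of 4 to 6 libraries tested over the 8 isomerases, 3 held a library far from the others by Dixon's 95% critical value, where chance flags about 1 in 20 groups. Pdia6 was high in control ZT13 replicate 1, with 828.2 normalized counts against 709 to 738 in the other 4 libraries. Pdia6 was also high in diabetic ZT9 replicate 3, with 890.7 against 668 to 728. Tmx1 was low in control ZT9 replicate 4, with 1119 against 1498 to 1588.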

How the results depend on the processing

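Of 608 values of single members under the alternatives, 576 kept their direction and side of the threshold, 12 lost and 14 gained a call, and 6 changed sign, none of them called. These were log2 fold changes of ZT17 over ZT5 for Pdia5 in diabetic retinas (0.0015 with the pigment epithelium covariate, -0.14 before), for Tmx1 in control (-0.045 with that covariate, -0.021 with the replicate block and -0.027 without the lens-rich libraries, 0.011 before) and diabetic retinas (0.025 with the block, -0.017 before), and of diabetic over control at ZT17 for Txndc11 (-0.0018 with a median above 10, 0.0030 before). Among 3712 values with 1 library left out, 3640 kept direction and call and 21 changed sign, none of them called. These belonged to Tmx1 for diabetic over control at ZT17 (-0.083 to 0.13), over all time points (-0.027 to 0.0012) and for ZT17 over ZT5 in control (-0.087 to 0.11) and diabetic retinas (-0.12 to 0.090), and to Txndc11 for diabetic over control at ZT17 (-0.015 to 0.035). With time point as a covariate, 4 members (2 without it) and 919 genes (572) differed between the genotypes over all time points. At single time points DESeq2's test called 133 genes and the replicate block 74 (39 in the main test). With the pigment epithelium covariate, ZT17 against ZT5 called 1836 genes in control (2884) and 492 in diabetic retinas (1407), and time of day in diabetic retinas 1084 (1948). For time of day in diabetic retinas DESeq2's test called 1 member (0). Rhythm in control held 3 members after adjustment, by the fold of time point means and without ZT17 (5), and 1573, 2532 and 2528 genes (4172). Rhythm in diabetic retinas held 0 members after adjustment and 2 without ZT1, ZT5, ZT9 or ZT17 (1), and 1967 genes after adjustment and 2710 by the fold of time point means (4565). The difference in rhythm called 1 gene by least squares and 3 with no filter (0), and no member. The adjusted p of Pdia6 for it ranged from 0.198 to 0.566 over the alternatives and from 0.132 to 0.743 with 1 library left out, and was 0.570 in the genotype by time point fit. The cause was not tested for any of these.

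With each library left out, members called ranged from 3 to 5 for ZT17 against ZT5 in control, 0 to 0 in diabetic retinas, 1 to 3 between genotypes at single time points, 2 to 4 over all time points, 2 to 4 and 0 to 2 for time of day in control and diabetic retinas, 5 to 6 and 1 to 2 for rhythm, and 0 to 0 for the difference in rhythm. Genes called ranged, in the same order, from 1373 to 3718, 882 to 1738, 10 to 106, 431 to 611, 1239 to 2040, 1515 to 2116, 3694 to 5079, 3974 to 4946 and 0 to 1. Counts moved by over 1.5 times without control ZT17 replicate 1 or 3 or ZT5 replicate 1 (control, all genes), diabetic ZT17 replicate 3 or 5 (diabetic, all genes) or 1, 3 or 5 (single time points, all genes), diabetic ZT17 replicate 5 (members, single time points: 1) and control ZT13 replicate 2 (members, all time points: 4). Members called between ZT17 and ZT5 in control fell to 3 without control ZT17 replicate 3 or 5 or ZT5 replicate 1, 2 or 6. Members rhythmic in diabetic retinas rose to 2 without any of 11 diabetic libraries (replicates 3 and 4 of ZT1, 5 of ZT5, 3, 4 and 5 of ZT9, 5 of ZT13, 1 and 3 of ZT17, 1 and 3 of ZT21). Members called for time of day in diabetic retinas numbered 2 without diabetic ZT13 replicate 1 and 1 without control ZT17 replicate 1 or diabetic ZT9 replicate 3. The difference in rhythm called 1 gene without control ZT17 replicate 5 or diabetic ZT1 replicate 3.

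Replicate numbers are shared across genotypes, but over 26 same-numbered pairs the correlation of deviations ranged from -0.329 to 0.716 (median 0.194) and was above 0.1 in 19. As not every pair was above 0.1 and the labels give the numbers no meaning, they were not taken to pair the samples. That 24 of 52 libraries correlated best with their own number is a hint from the data, not the design, that some share more than a number. The replicate block called 3 members over all time points (Txndc5 added, adjusted p = 0.0455) and 4 for time of day in control (Txndc11 added, adjusted p = 0.0418).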
